A study of Rattus norvegicus with 8 samples.

Results

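The tumor necrosis factor (TNF) ligands, their receptors and the TRAF adaptors were examined in the whole genome expression arrays of dexamethasone-treated rat primary thymocytes. Members were the array probes whose gene name begins with Tnfrsf or Tnfsf, together with Tnf, Lta, Ltb, Ltbr, Cd27, Cd40, Cd40lg and Traf1 to Traf6. Fas and Fas ligand were left out by this rule. It found 35 probes of 32 genes among the 41012 probes and 35537 gene names of the array, namely 12 ligands, 15 receptors, 4 TRAFs and Psmg2. The array lists Psmg2 under the name Tnfsf5ip1, but it encodes a proteasome assembly chaperone and no member of the family. Cd27, Traf1 and Traf5 have no probe under those names and were not analysed here as members.

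Thymocytes came from adrenalectomized male Sprague-Dawley rats, so that both groups lacked adrenal steroid before culture. The thymi of 3 rats were pooled for a preparation, and the cells were kept in culture for 6 hours. The 4 Control arrays had no hormone added, and the 4 Dex arrays had 100 nM of the synthetic glucocorticoid dexamethasone. Cells were sieved and not sorted, so macrophages, B cells and stromal cells of the thymus could be present. The study's methods speak of 3 biological replicates per group, whereas all 4 arrays of each group were used here. Because nothing in the labels says which cultures were separate preparations, the p-values below measure the spread between these samples, which may be technical in part.

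TNF family ligands are mostly membrane-bound proteins that engage receptors on neighboring cells. Receptors with a death domain can lead to caspase activation, whereas most of the others recruit TRAF adaptors and lead to NF-kappaB and MAP kinase signaling. In the thymus, lymphotoxin, RANK and CD40 signals are known for shaping the medullary epithelium, and glucocorticoids are known to act on NF-kappaB target genes.

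Signals are log2 values of background-subtracted spot intensity after quantile normalization between arrays, and a difference of 1 is a doubling. The number of probes well above background was 24911 on the lowest array and 34476 on the highest, and no member probe was saturated. Among the 32 genes, 25 were well above background on all 8 arrays. Tnfsf10, Tnfsf18 and Tnfrsf11b were not well above background on any array, and Lta, Tnfsf4, Tnfsf15 and Tnfrsf10b were so on some arrays. A gene is represented by its brightest probe, and levels of different members were not compared with each other.

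No member passed the test across all probes. With limma and Benjamini-Hochberg adjustment at 0.05, 0 of 32 genes were called, against 319 of 40996 probes (0.778%), with 231 (0.563%) in the direction of higher and 88 (0.215%) in the direction of lower Dex signal. At an unadjusted p under 0.05, limma gave 7 of the 32 genes (21.9%), and 10.6% of all probes. Restricted to those well above background on every array, the shares were 24.0% of members and 13.1% of probes. The study's signal to noise statistic was recomputed here on all 4 arrays of each group. With the study's nominal p of 0.01 and fold change of 1.2, it called 4 of the 32 genes (12.5%). These were Tnfrsf8, Traf4, Ltb and Tnfrsf11a. It also called 2784 of all 40996 probes (6.79%). The study describes fewer replicates per group and reported far fewer genes as differentially expressed, so these calls are not its own. The reason for that gap was not tested. In 5 genes (15.6%) the 4 Dex arrays all lay on one side of the 4 Control arrays, compared with 9.11% of all probes. Among those well above background on every array, this held for 20.0% of members and 13.2% of probes. The 5 genes were Tnfrsf8, Tnfrsf21, Traf4 and Ltb, which were lower in Dex, and Tnfrsf11a, which was higher. The signal to noise calls are a subset of these genes.

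Dex minus Control differences of the 25 genes well above background on every array ran from −1.97 to 0.68 on the log2 scale with a median of −0.04, and the median of the 23983 such probes on the array was −0.02. Among these genes, 4 of 7 ligands had the higher mean in Dex and 3 the lower. The 13 receptors divided into 5 and 8, and all 4 TRAFs had the lower mean in Dex, as did 12567 of the 23983 probes. Of the TRAFs, Traf6 was at only −0.04, and at 0.03 with 75th percentile scaling. Leaving out a single array moved the difference by over 1.5 times in 18 of the 25 genes and turned its sign in 9 of these. The 7 others were Tnfrsf8, Traf4, Tnfrsf21, Ltb, Tnfrsf11a, Tnfsf9 and Tnf.

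**Figure D1:**
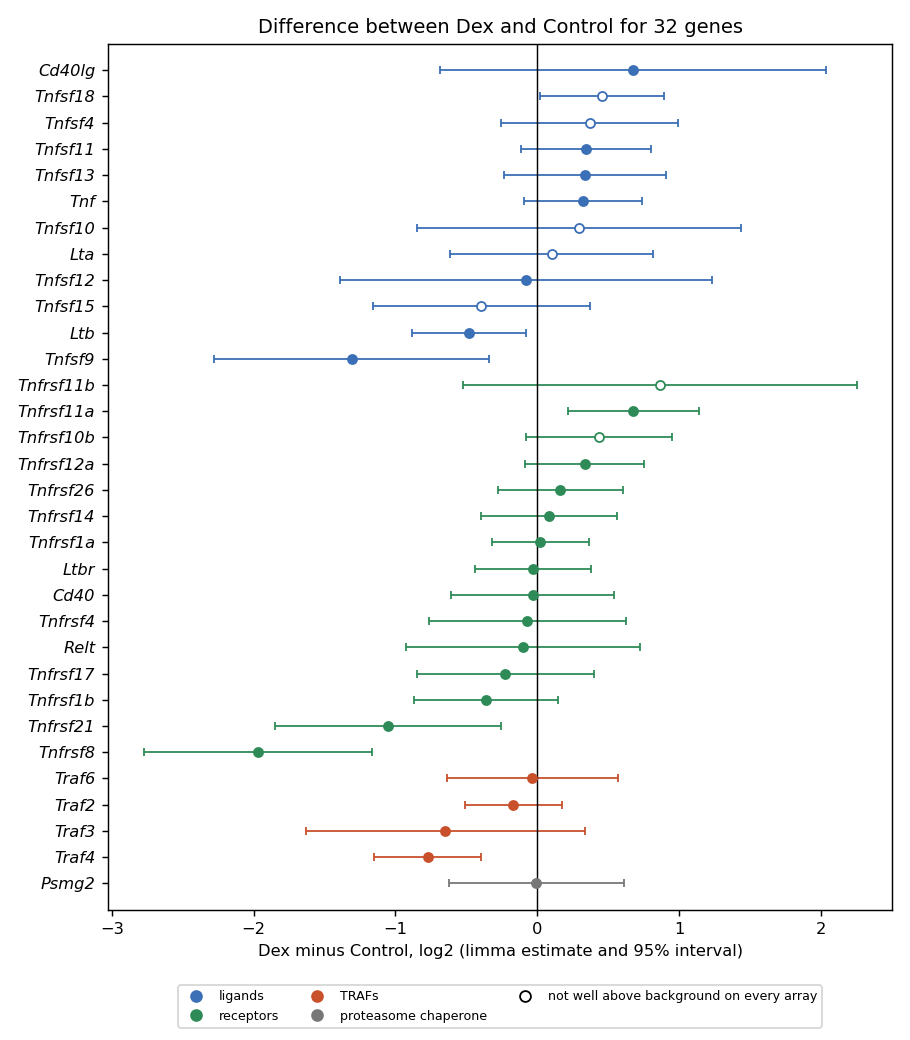
Dex minus Control difference of each of the 32 genes on the log2 scale (horizontal axis) with its 95% limma interval, ordered within ligands (blue), receptors (green), TRAFs (orange) and the proteasome chaperone (grey). Open circles are genes not well above background on every array. The upper ends of the intervals of Tnfrsf8 (−1.17) and Traf4 (−0.40) are the lowest, although no gene passed the adjusted threshold.

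Tnfrsf8 encodes CD30, a receptor of activated lymphocytes that signals through TRAFs, and had the largest difference of the 25 genes. The 4 Control arrays read 7.10, 7.31, 6.39 and 6.90, and the 4 Dex arrays read 5.56, 5.47, 4.51 and 4.29. Every Dex array was thus below every Control array, with Dex 3 and Dex 4 the lowest. The group means were 6.93 ± 0.39 and 4.95 ± 0.65 (SD, n = 4), a 3.92-fold lower signal in Dex. The log2 difference was −1.97 (SE 0.350, 95% interval −2.78 to −1.17) and its limma adjusted p of 0.0562 missed the threshold. Each of the 4 pairs of the same replicate number had the lower signal in Dex, with log2 differences of −1.55, −1.85, −1.88 and −2.61. Control 1 and Dex 3 shared the only slide with both groups, and within it the difference was −2.59. Its probe lies at chr5:163727155-163727214 of genome build rn3.

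The call on Tnfrsf8 turned on the processing. Of 21 alternatives it was called in 8, with differences from −2.59 to −0.89 and adjusted p from 0.00783 to 0.771, and all 21 kept the lower Dex mean. The 8 include the signal to noise statistic, which has no adjusted p and called 6.79% of all probes. They also include both subsets chosen after seeing the data. Without Dex 1 and Dex 2, 17.4% of all probes were called, and without Dex 3 and Dex 4, 18.0%. Normexp background correction gave the smallest difference, −0.89 with an adjusted p of 0.0248. This setting also adds an offset of 50 to every signal before the log2 step. The offset by itself shrinks log2 differences of dim probes, here and in each normexp value below.

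Traf4, a TRAF that is known mainly for roles in development, had the smallest Dex SD of the 5 genes whose brightest probe separated the groups. Control signals were 10.62, 11.14, 10.97 and 10.91, and Dex signals were 10.14, 10.01, 10.11 and 10.29. The lowest Control array therefore lay above the highest Dex array. Means were 10.91 ± 0.22 in Control and 10.14 ± 0.11 in Dex (SD, n = 4), with a log2 difference of −0.77 (SE 0.165, interval −1.15 to −0.40) and a limma adjusted p of 0.103. The difference was close in Dex 1 and Dex 2 (−0.84 from the Control mean) and in Dex 3 and Dex 4 (−0.71). The slide shared by Control 1 and Dex 3 gave −0.51. Traf4 was called in 6 of the 21 alternatives, with values between −0.87 and −0.51. The 6 likewise include the signal to noise statistic and both subsets chosen after seeing the data. The probe maps to chr10:64489992-64490051 (rn3).

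Tnfrsf21 (DR6), a receptor with a death domain, read 5.68, 5.43, 5.52 and 5.95 in Control and 5.17, 5.24, 3.83 and 4.14 in Dex. All Dex arrays were below all Control arrays, but Dex 1 and Dex 2 lay just under the Control range whereas Dex 3 and Dex 4 lay well under it. The difference of −1.05 had a 95% interval of −1.85 to −0.26 (limma adjusted p = 0.311). It was −0.44 in Dex 1 and Dex 2, −1.66 in Dex 3 and Dex 4, −1.85 within the shared slide and −0.27 after normexp background correction. The probe spans chr9:13587410-13589728 (rn3), a stretch longer than its 60 bases.

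Ltb encodes lymphotoxin beta, the ligand subunit that anchors the lymphotoxin heterotrimer to the membrane. It read 14.81, 14.51, 14.46 and 14.51 in Control and 14.30, 14.25, 13.78 and 14.03 in Dex. The groups did not overlap, and the gap between Control 3 and Dex 1 was small against the spread of the Dex arrays. The difference was −0.48 (interval −0.89 to −0.08, limma adjusted p = 0.368), and −1.03 within the shared slide. The Ltb probe is at chr20:3666936-3666995 (rn3).

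Tnfrsf11a, which encodes the receptor RANK, was the only one of the 25 genes whose brightest probe had all Dex arrays above all Control arrays. Control arrays read 6.51, 6.67, 6.43 and 6.63, and Dex arrays read 7.62, 7.45, 7.01 and 6.88. Here Dex 1 and Dex 2 were farthest from Control. The log2 difference was 0.68 (interval 0.21 to 1.14, limma adjusted p = 0.253), 0.50 within the shared slide, and 0.41 with normexp correction. Its probe lies at chr13:12191787-12191846 (rn3). The RANK ligand Tnfsf11 had a Dex mean of 4.77 ± 0.35 and a Control mean of 4.43 ± 0.09 (SD, n = 4), with overlapping arrays and a difference of 0.35 (interval −0.11 to 0.80), which was 0.19 without Dex 3 and 0.05 with normexp correction.

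**Figure D2:**
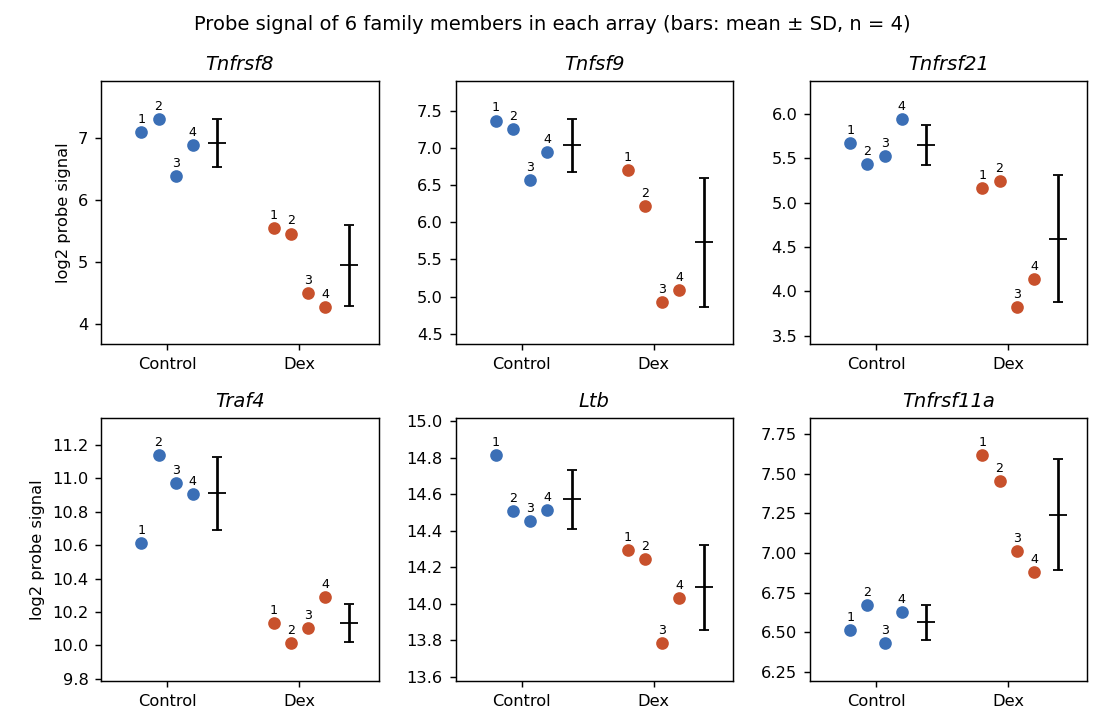
Log2 probe signal (vertical axis, a separate range for each gene) of Tnfrsf8, Tnfsf9, Tnfrsf21, Traf4, Ltb and Tnfrsf11a in the 4 Control (blue) and 4 Dex (orange) arrays, with the replicate number at each point and black bars for mean ± SD. The groups do not overlap in 5 of these genes, and in Tnfsf9 the Dex 1 array, at 6.70, lies above the lowest Control array, at 6.57.

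The promoter sequences of the 4 genes that were lower on every Dex array are shown so that members with a shared direction can be compared. They are the 250 bases before the annotated start in the table of RefSeq promoters used here (assembly GRCr8), which held 22 of the 32 genes, and are written 5′ to 3′ on the strand of the gene. Capitals mark matches to the kappaB consensus of NF-kappaB.
Tnfrsf8 (chr5:162451621-162451870, minus strand): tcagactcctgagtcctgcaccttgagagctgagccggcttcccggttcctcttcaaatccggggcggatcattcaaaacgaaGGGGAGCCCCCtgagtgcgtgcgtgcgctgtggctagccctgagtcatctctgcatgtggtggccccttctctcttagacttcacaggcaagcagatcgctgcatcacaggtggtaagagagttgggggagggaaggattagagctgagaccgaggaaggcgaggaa
Ltb (chr20:3634055-3634304, minus strand): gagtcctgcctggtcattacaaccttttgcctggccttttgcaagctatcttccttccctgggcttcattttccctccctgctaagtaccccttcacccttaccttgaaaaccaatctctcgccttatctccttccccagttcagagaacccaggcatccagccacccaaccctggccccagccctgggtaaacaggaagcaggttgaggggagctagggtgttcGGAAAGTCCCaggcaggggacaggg
Tnfrsf21 (chr9:25451324-25451573, minus strand): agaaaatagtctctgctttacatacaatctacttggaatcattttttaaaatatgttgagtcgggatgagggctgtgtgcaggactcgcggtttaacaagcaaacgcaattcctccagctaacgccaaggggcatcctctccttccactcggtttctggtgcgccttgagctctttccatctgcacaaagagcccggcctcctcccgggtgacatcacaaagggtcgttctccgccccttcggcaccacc
Traf4 (chr10:63558357-63558606, minus strand): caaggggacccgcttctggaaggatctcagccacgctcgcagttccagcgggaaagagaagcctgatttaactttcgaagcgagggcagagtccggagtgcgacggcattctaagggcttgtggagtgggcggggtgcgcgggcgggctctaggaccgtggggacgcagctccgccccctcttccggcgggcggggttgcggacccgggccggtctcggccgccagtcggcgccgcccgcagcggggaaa
Both strands were searched for the kappaB consensus and for ACANNNTGT, the core shared by many glucocorticoid response elements. A kappaB match was present in 4 of the 22 member promoters (Tnfrsf8, Ltb, Lta and Traf3) and in 6.33% of all 33469 promoters of this length. Tnfrsf8 had 2 overlapping matches that begin 167 and 166 bases before the start, and Ltb had 1 that begins 25 bases before it. The glucocorticoid element core was in 0 of the 22 member windows and in 5.81% of all windows. A match is a description of these letters only, and Tnfrsf21 and Traf4 held neither.

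Among the ligands, Tnf encodes the founding cytokine of the family. Its signals were 4.48, 4.66, 4.13 and 4.21 in Control and 4.68, 4.95, 4.56 and 4.58 in Dex. Dex was higher in each of the 4 pairs of the same replicate number, yet Control 2 lay above the 2 lowest Dex arrays. The difference of 0.32 (interval −0.09 to 0.74) did not pass (limma adjusted p = 0.606). It was 0.06 with normexp correction and 0.07 within the shared slide. Lta, the soluble lymphotoxin subunit, was well above background on 2 arrays of each group. It read 3.90, 3.32, 2.78 and 4.25 in Control and 3.46, 3.68, 3.81 and 3.69 in Dex, and the Dex values lay inside the Control range.

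Tnfsf9, the CD137 ligand of activated antigen-presenting cells, had the second largest difference of the 25 genes. It read 7.38, 7.27, 6.57 and 6.95 in Control and 6.70, 6.22, 4.92 and 5.08 in Dex. Dex 1 overlapped the Control arrays, and Dex 3 and Dex 4 were far below them. The mean difference was −1.31 (interval −2.28 to −0.34, limma adjusted p = 0.298). It was −0.58 in Dex 1 and Dex 2, −2.04 in Dex 3 and Dex 4, −2.45 within the shared slide and −0.66 with normexp correction.

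Cd40lg, which encodes the ligand by which helper T cells engage CD40, read 4.04, 3.41, 4.75 and 4.84 in Control and 5.64, 6.13, 4.39 and 3.58 in Dex. Dex 1 and Dex 2 were above every Control array, and Dex 3 and Dex 4 lay within their range. Its difference of 0.68 accordingly had an interval from −0.68 to 2.03. Tnfsf12, which encodes TWEAK, showed the opposite order. It read 8.41, 8.79, 8.41 and 7.98 in Control, 7.43 and 7.09 in Dex 1 and Dex 2, and 9.06 and 9.69 in Dex 3 and Dex 4. The mean difference of −0.08 (interval −1.39 to 1.24) thus combined −1.14 in the former pair with 0.98 in the latter. Tnfsf13 (APRIL), which acts on B cells and plasma cells, had a difference of 0.34 with an interval of −0.23 to 0.90. It was 0.69 in Dex 1 and Dex 2, −0.02 in Dex 3 and Dex 4, 0.19 without Dex 1 and −0.43 within the shared slide.

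Tnfsf10 encodes the death ligand TRAIL. It read 2.38, 1.11, 2.22 and 1.94 in Control and 2.84, 3.23, 1.36 and 1.40 in Dex, on no array well above background, so no difference was read. Tnfsf18, the ligand of GITR, had signals from 1.66 to 2.66 over the 8 arrays and was likewise not measured above background. Tnfsf4 (OX40 ligand) and Tnfsf15 (TL1A) ranged from 2.39 to 3.61 and from 2.45 to 3.98, and both had overlapping groups.

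Among the receptors, Tnfrsf1a, the death domain receptor for TNF, was nearly level. Control arrays read 10.58, 10.36, 10.45 and 10.35, and Dex arrays read 10.45, 10.64, 10.49 and 10.26. The difference was 0.02 with an interval of −0.32 to 0.37, so differences beyond these bounds lie outside it. Tnfrsf1b, the TNF receptor without a death domain, read 8.80, 8.33, 8.48 and 8.55 in Control and 8.38, 8.38, 7.62 and 8.33 in Dex. Dex 3 stood apart from the other 3 Dex arrays, and the difference of −0.36 had an interval of −0.87 to 0.14 and was −0.18 without Dex 3. Tnfrsf10b, a TRAIL receptor with a death domain, was well above background on 1 Control and 2 Dex arrays, with signals of 1.79 to 2.97 over the 8 arrays.

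Ltbr, the lymphotoxin beta receptor of stromal and myeloid cells, read 6.88, 7.04, 6.62 and 6.79 in Control and 7.02, 6.75, 6.50 and 6.93 in Dex. The groups overlapped, and the difference was −0.03 (interval −0.44 to 0.38). Cd40, a receptor of B cells and other antigen-presenting cells, read 7.47, 6.70, 7.43 and 7.44 in Control and 7.42, 7.45, 6.73 and 7.31 in Dex. The difference was −0.03 (interval −0.60 to 0.54), and its dimmer second probe gave 0.26 (interval −0.14 to 0.66). The intervals of Ltbr and of both Cd40 probes hold differences of either sign and do not show that Dex left these genes unaffected.

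Tnfrsf4 (OX40), a costimulatory receptor of activated T cells, read 8.65, 8.85, 9.15 and 8.79 in Control, 8.40 and 8.16 in Dex 1 and Dex 2, and 9.30 and 9.31 in Dex 3 and Dex 4. The Dex arrays lay on both sides of the whole Control range, and the mean difference was −0.07 (interval −0.76 to 0.62). Tnfrsf14 (HVEM), a receptor for LIGHT and BTLA, is represented by 2 probes, whose difference from each other was not tested. The brighter probe gave 0.08 (interval −0.40 to 0.56), which was 0.21 without Dex 2, 0.20 without Control 1 and −0.03 without Control 4. Signals of the dimmer one were 9.33, 8.99, 9.16 and 9.02 in Control and 9.63 in Dex 1 and 9.49 to 9.54 in the other Dex arrays, so the groups did not overlap. Its difference was 0.42 (interval 0.08 to 0.75, limma adjusted p = 0.344). The 2 probes of Tnfrsf12a, the TWEAK receptor, gave 0.33 (interval −0.09 to 0.76) and 0.04 (interval −0.48 to 0.57).

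The remaining receptors had overlapping groups. Tnfrsf26 had a difference of 0.16 (interval −0.28 to 0.60), which was 0.06 without Dex 2. Relt had −0.10 (interval −0.92 to 0.72), which was 0.14 without Dex 3. Tnfrsf17, the plasma cell receptor BCMA, had −0.23 (interval −0.85 to 0.40), which was −0.02 without Control 1. Tnfrsf11b, the decoy receptor for RANK ligand, read 0.99 to 3.98 over the 8 arrays and was not above background.

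Besides Traf4, the 3 other adaptors were well above background on every array. Traf2, the adaptor of many receptors of the family, read 11.49, 11.49, 11.48 and 11.52 in Control and 11.43, 11.52, 11.25 and 11.11 in Dex. The Control arrays were nearly identical, Dex 2 matched them, and the difference was −0.17 (interval −0.51 to 0.17), or −0.10 without Dex 4. Traf3, an inhibitor of noncanonical NF-kappaB signaling, read 6.16, 5.85, 5.52 and 6.09 in Control and 5.87, 6.14, 4.20 and 4.82 in Dex. Dex 1 and Dex 2 were in the Control range and Dex 3 and Dex 4 were below it, so that the difference of −0.65 had an interval of −1.63 to 0.33. Traf6, which also serves the interleukin-1 and Toll-like receptors, read 8.51, 8.54, 8.37 and 8.54 in Control and 8.82, 8.99, 7.91 and 8.10 in Dex. Dex 1 and Dex 2 were above all Control arrays and Dex 3 and Dex 4 below all of them, which gave a difference of −0.04 (interval −0.64 to 0.57).

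The division of the Dex arrays seen in these genes was counted over all members. Of the 32 genes, 15 (46.9%) lay on opposite sides of the Control mean in the average of Dex 1 and Dex 2 and in that of Dex 3 and Dex 4, compared with 60.3% of all probes. In 23 genes (71.9%) the latter pair had the lower signal, as in 59.0% of all probes and 68.4% of those well above background on every array. The median SD of the 32 genes was 0.241 in Control and 0.354 in Dex, and the Dex SD was the larger in 23 of them, against 75.4% of all probes. Dex 1 and Dex 2 had 26474 and 24911 probes well above background, and Dex 3 and Dex 4 had 33287 and 33406. Control 1 had 28666 and the other Control arrays 33150 to 34476. Deviations of Control 1 from its group mean correlated across probes at 0.397 and 0.401 with those of Dex 1 and Dex 2, and at −0.400 and −0.421 with those of Dex 3 and Dex 4. Each value within the shared slide sets Dex 3 against Control 1 and thus arrays from opposite sides of this division. Signals at the 75th percentile were 425 and 400 on the former and 266 and 264 on the latter. Dex 4 shared its slide with Dex 1 and Dex 2, and Dex 3 shared one with Control 1. Whether the slides had a part in the division was not tested. The part of array quality in these differences was not tested.

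With Dex 1 and Dex 2 left out, 6 members were called (Ltb, Tnfsf9, Tnfrsf21, Tnfrsf8, Traf3 and Traf4, 18.8%), all lower in Dex, and 17.4% of all probes. Leaving out Dex 3 and Dex 4 instead called 4 members (Tnfsf12, Tnfrsf11a, Tnfrsf8 and Traf4, 12.5%) and 18.0% of all probes. Both comparisons use the same 4 Control arrays, and Tnfrsf8 and Traf4 were in both sets. In both cases the share of members was near that of all probes or below it. These subsets were chosen after the data had been seen.

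**Figure D3:**
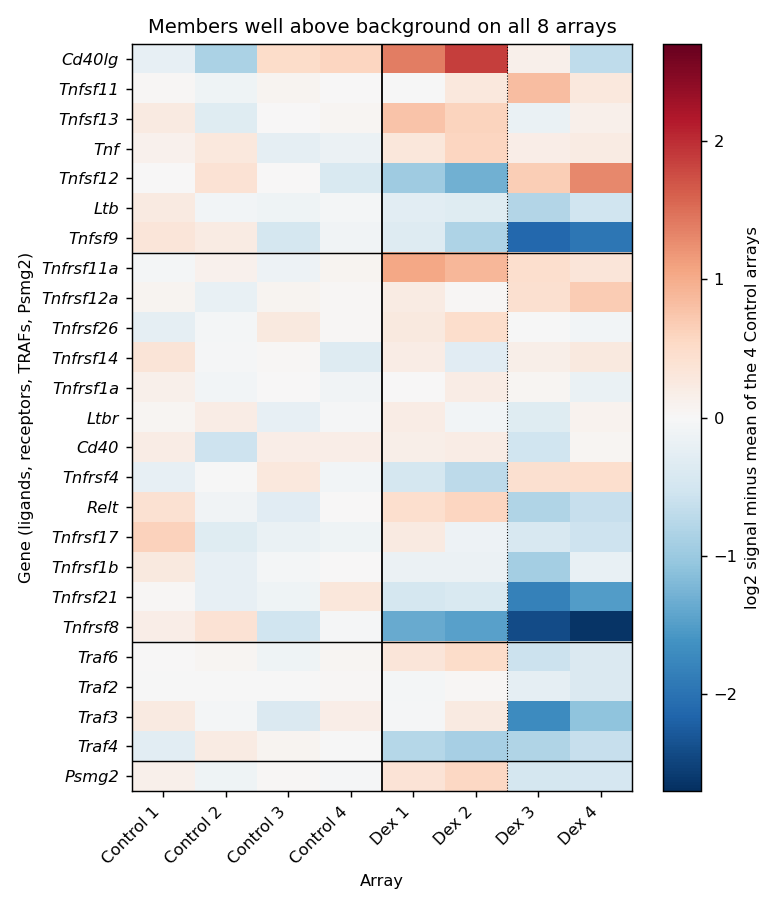
Log2 signal of each array (columns) minus the mean of the 4 Control arrays, for the 25 genes well above background on all 8 arrays (rows, ordered as ligands, receptors, TRAFs and Psmg2), with red for higher and blue for lower signal. The dotted line separates Dex 1 and Dex 2 from Dex 3 and Dex 4, which have opposite colors for Tnfsf12, Tnfrsf4, Relt, Traf6 and Psmg2. Values span −2.64 to 1.87.

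Several members are neighbors in the genome, and the separate table of RefSeq genes (GRCr8) places 6 adjacent pairs of them within 100 kb. Tnfrsf8 and Tnfrsf1b form such a pair, with differences of −1.97 and −0.36. Ltb and Tnf form another, with −0.48 and 0.32. For each of these pairs the exact two-sided permutation test of the difference between the neighbors gave p = 0.0286, the smallest that 4 arrays against 4 allow, and 0.0857 after Benjamini-Hochberg adjustment over the 6 pairs. The tests were added after the values were known. The other 4 pairs (Lta and Tnf, Ltbr and Tnfrsf1a, Tnfsf4 and Tnfsf18, Tnfsf12 and Tnfsf13) had exact adjusted p of 0.771. Tnfsf18 was not well above background on any array, and Lta and Tnfsf4 only on some. Tests with these genes say little about the pairs, yet they count among the 6 in the adjustment.

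Members of the family are also listed on the array under provisional names. Tnfrsf18 (GITR), a costimulatory receptor named for its induction by glucocorticoid, read 10.43, 9.86, 9.73 and 9.85 in Control and 9.68, 9.87, 9.35 and 9.41 in Dex. The groups overlapped, and the difference of −0.39 (interval −0.87 to 0.10) did not pass (limma adjusted p = 0.592). Tnfrsf9 (CD137), the receptor for the Tnfsf9 product, read 5.81, 5.19, 5.40 and 5.59 in Control and 6.22, 6.10, 4.87 and 5.19 in Dex. Its difference was 0.10 (interval −0.67 to 0.86), with Dex 1 and Dex 2 above all Control arrays and Dex 3 and Dex 4 below them. The probe for a predicted transcript described as similar to Traf1, an adaptor that is itself an NF-kappaB target, gave 11.36, 11.53, 11.19 and 11.27 in Control and 11.06, 11.10, 10.10 and 10.38 in Dex. These groups did not overlap, and the difference was −0.68 (interval −1.27 to −0.09, limma adjusted p = 0.387). A transcript described as similar to Traf5 gave −0.01 (interval −0.50 to 0.48).

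Downstream of the receptors, 30 of 35 listed signaling genes, among them death domain adaptors, caspase regulators, kinases, NF-kappaB subunits and their inhibitors, had a probe, and all 30 were well above background on every array. Of these, 1 was called (3.33%), in the direction of higher Dex signal, where 0.563% of all probes and 0.901% of the 23983 probes well above background on every array were called. It was Nfkbia, which encodes the inhibitor IkappaB alpha. Nfkbia read 11.73, 12.01, 12.02 and 11.95 in Control and 13.20, 13.46, 13.25 and 13.44 in Dex, so the 4 arrays of each group lay close together and far from the other group. It rose by 1.41 on the log2 scale (SE 0.150, interval 1.07 to 1.76, limma adjusted p = 0.00643), and both of its probes were called. Blocking on the replicate number gave an adjusted p of 0.0673, and scaling to the 75th percentile gave 0.100, with differences of 1.41 and 1.43. Within the shared slide its difference was 1.53. The 30 genes divided into 12 with a higher and 18 with a lower Dex mean (median −0.05). In 8 of them (26.7%, against 9.11% of all probes and 13.2% of those well above background on every array) the groups did not overlap, 3 higher and 5 lower in Dex.

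**Figure D4:**
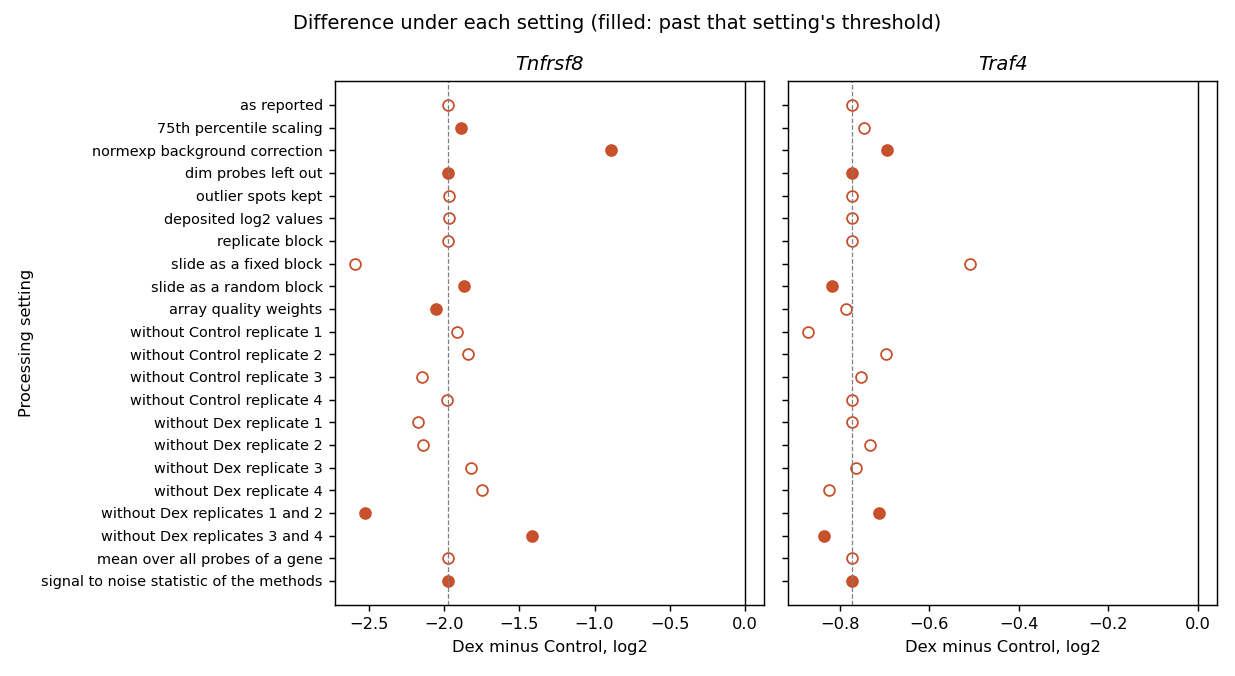
Dex minus Control log2 difference (horizontal axes) of Tnfrsf8 and Traf4 under each processing setting (rows), with filled circles where that setting's own threshold was passed. The dashed line is the value reported here. All settings lie below 0, and Tnfrsf8 ranges from −2.59 to −0.89.

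Marker genes of thymic cell types were measured beside the family. Of 10 listed markers of double positive thymocytes, 7 were found and all were well above background on every array. Their summed signal (linear scale) was 54290 to 67624 in Control and 51791 to 54262 in Dex, and 65.0% to 73.4% of it was the Cd8a probe, whose own log2 signal overlapped between Control (15.15 to 15.48) and Dex (15.04 to 15.28). The sums of the groups touched without overlapping, and their mean log2 signal overlapped (11.80 to 12.09 and 11.45 to 11.81). By limma, 0 of 7 were called. Of the 7, 2 had the higher and 5 the lower mean in Dex, and in 1, the pre-T cell receptor chain Ptcra (−0.61), all Dex arrays lay below the Control arrays. Macrophage and dendritic cell markers (13 of 14 found, 0 called) summed to 4581 to 6261 in Control and 4414 to 8876 in Dex. Of the 13, 8 had the higher and 5 the lower mean in Dex, and in 2 of them, the mannose receptor Mrc1 (2.12) and the complement component C1qc (0.97), all Dex arrays lay above the Control arrays. Stromal and epithelial markers (11 of 12 found) summed to 3933 to 5437 in Control and 5001 to 6828 in Dex, again led by a single bright probe, Krt18. Their mean log2 signal was 5.87 to 6.11 in Control and 6.25 to 6.66 in Dex, which did not overlap, and 10 of the 11 had the higher mean in Dex. The groups did not overlap in Pecam1 and Pdgfrb, and 1 marker was called, the endothelial gene Pecam1, which rose by 1.36 (limma adjusted p = 0.0208). The called share was 9.09% of the stromal markers and 0.778% of all probes. Groups without overlap made up 14.3% of the double positive, 15.4% of the macrophage and 18.2% of the stromal markers. For all probes that share was 9.11%, and 13.2% for those well above background on every array. Pdgfrb, a gene of pericytes and fibroblasts, had a difference of 1.72 and was well above background on 2 Control and 3 Dex arrays. B cell markers (5 of 7 found, 0 called) summed to 176 to 247 and 148 to 283. Erythroid markers (4 of 6 found, 0 called) summed to 317 to 1411 and 356 to 2420. For NK and innate lymphoid markers (6 of 7 found, 0 called) the sums were 3318 to 3773 and 2474 to 4983. The B cell marker Ms4a1 was not well above background on any Dex array. In these mixed cells, fewer cells of a type and less RNA per cell cannot be told apart, and the part of cell composition in the member differences was not tested.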

How the data were processed

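Gene expression was measured on 1-color Agilent Whole Rat Genome arrays, 4 Control and 4 Dex. The authors scanned the arrays and used Feature Extraction (version 9.5.3.1), which subtracts background, and deposited the spot intensities with the software's flags (a 0 or 1 score for well above background, saturated and outlier spots). They also deposited log2 values, quantile normalized and summarized per probe by median polish. Here the processed intensities were log2-transformed, outlier spots were left out, and the same normalization and summary were repeated, leaving 16 missing values, none in a member. The result correlated with the deposited log2 values at 0.999999 or more on each array. Probe positions are rn3, per the file headers. Of the 35 member probes, 23 were named through their accession and 12 by the array's name. Exon and untranslated region annotation of rn3 was not used here.

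limma (version 3.58.1, R version 4.3.3; lmFit and eBayes) was fitted to all 8 arrays, two-sided, without a block, with Benjamini-Hochberg adjustment over 40996 probes. On simulated data of that size, 41.9% of log2 changes of 1.5 and 78.9% of changes of 3 were called. Alternatives changed the scaling, background correction, filter on dim probes, blocking by replicate number or slide, array weights and arrays used. Normexp correction was run with an offset of 50, so its differences for dim probes are smaller by construction. Deviations of arrays with the same replicate number correlated at 0.397, 0.129, 0.550 and 0.184, all above 0.1, whereas arrays of different numbers ranged from −0.463 to 0.401. The number served as a block in an alternative only. The number of arrays limits the precision.

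The members and the lists (pathway genes and markers of erythroid, NK, stromal, B, macrophage and double positive cells) were chosen with earlier results of these data known. Full values are given for called members, for members whose groups did not overlap and that were well above background on the brighter group's arrays, and for a fixed set with Tnf, lymphotoxins, CD40, the TNF, OX40, CD137 and GITR receptors, TRAIL and TRAFs. Values by array of Tnfsf9 and Tnfsf12 were added after they were seen. The pathway gene named in the results is the one called, and those under other observations, the markers with values and the second probes were chosen after their values were seen.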

Additional observations from a re-analysis of the deposited data

Results flagged for a closer look

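Over the 32 genes, 64 groups of 4 arrays were examined for an array far from the other 3, and 4 groups held one, where chance gives about 1 in 20 groups. Each was well above background. Control 1 was high for Ltb at 14.81 against 14.51 in the nearest array, a gap of 0.841 of the group's range. Control 2 was low for Cd40 at 6.70 against 7.43, a gap of 0.948 of the range. Control 2 was also low for Tnfrsf12a at 5.73 against 5.97 (0.840 of the range). For Tnfrsf1b the low array was Dex 3, at 7.62 against 8.33 (0.936 of the range).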

How the results depend on the processing

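The count of members called was 0 and moved to 1 (Tnfrsf8) with 75th percentile scaling (0.405% of all probes) or array weights (0.688%). It was 2 (Tnfrsf8 and Traf4) with normexp correction (2.22% of all probes) or without dim probes (1.97%), 3 with the slide as a random block (Tnfrsf11a, Tnfrsf8 and Traf4, 4.49%) and 4 with the signal to noise statistic. Chosen after seeing the data, leaving out Dex 1 and Dex 2 gave 6, and leaving out Dex 3 and Dex 4 gave 4. Each single array left out gave 0. The pathway count of 1 became 0 with 75th percentile scaling, the replicate block or the slide as a fixed block. It became 4 of 30 (13.3%) with normexp correction (2.22% of all probes) or the random slide block (4.49%), and 7 (23.3%) with the signal to noise statistic (6.79%). Without Dex 1 and Dex 2 it was 6 (20.0%, near the 17.4% of all probes), and without Dex 3 and Dex 4 it was 3 (10.0%, below the 18.0% of all probes). Members with groups that did not overlap numbered 5, with 6 (18.8%) after 75th percentile scaling, where 7.35% of all probes did not overlap, and 3 (9.38%) after normexp correction, where 8.97% did not. The cause of these shifts was not tested, apart from the fewer probes tested without dim probes.

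The replicate block gave 0 members called, as without it, and 81 of 40996 probes in place of 319. It ended the call on Nfkbia and changed no other call on members or pathway genes. With the slide as a fixed block, the difference rests on Control 1 and Dex 3, whose slide alone held both groups. In 66 of 666 pairs of gene and alternative the difference had the opposite sign, and none of these was called. Genes near background, with 7 of 32 not measured on every array, have the least certain differences.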

Other observations

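Other members under provisional array names were Tnfsf13b (BAFF, a B cell survival factor), which was well above background on 4 Control and 3 Dex arrays and had a difference of 0.05 (interval −0.59 to 0.69), and Tnfrsf19, which was not well above background on any array. Neither passed the test, with limma adjusted p of 0.968 and 0.349.

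Pathway genes besides Nfkbia in which the groups did not overlap were chosen after their values were seen. Those lower in Dex were the inhibitor of apoptosis Birc3 (−0.67), the caspase Casp8 (−0.70), the caspase inhibitor Cflar (−0.51), the kinase Mapk9 (−0.54) and the TRAF-binding protein Tank (−0.48). Those higher were the kinase Ikbkb (0.20) and Tnip2 (0.28). Their limma adjusted p lay between 0.166 for Birc3 and 0.667 for Ikbkb, and none passed.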
